A study of Homo sapiens with 6 samples.

Results

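Aldo-keto reductases were followed in PC3, an established human prostate cancer line, through every probe set whose platform annotation names only AKR1A1, AKR1B1, AKR1B10, AKR1C1, AKR1C2, AKR1C3 or AKR7A2. This gave 12 probe sets, of 54675 on the array and 41091 with 1 named gene. They cover 5 of the 7 genes: 5 probe sets for AKR1C1, 3 for AKR1C2, 2 for AKR7A2 and 1 each for AKR1B10 and AKR1C3. No probe set was named for AKR1A1 or AKR1B1 in the annotation used here, so both are without values. The cells had been transfected 72 h before RNA extraction with scrambled siRNA, with an siRNA pool against VEGFC, or with an siRNA pool against NRP2. VEGFC is the gene of VEGF-C, which drives the growth of lymphatic vessels, and NRP2 that of its co-receptor neuropilin-2. Each of the 3 groups had 2 Affymetrix HG-U133 Plus 2.0 arrays, which makes 6 arrays. The VEGF-C pool came from Dharmacon and the NRP-2 pool from Santa Cruz Biotechnology, and each target was hit by a single pool, so an effect of the target, of the siRNA sequences and of the supplier cannot be told apart. Nothing in the labels says that the arrays of a group came from separate cultures, so the spread between them may be technical.

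Aldo-keto reductases are soluble enzymes that use NADPH to reduce carbonyl groups of sugars, lipid aldehydes, steroids, prostaglandins and drugs to alcohols. AKR1C1 inactivates progesterone, AKR1C2 inactivates dihydrotestosterone, and AKR1C3 makes testosterone from androstenedione and converts prostaglandins, which is why these enzymes are studied in prostate cancer. AKR1B10 reduces retinal and lipid aldehydes, AKR1B1 reduces glucose to sorbitol, AKR1A1 is a general aldehyde reductase, and AKR7A2 reduces succinic semialdehyde and aflatoxin dialdehyde. Several genes of the family, AKR1C1 and AKR1B10 among them, are known targets of NRF2, the transcription factor of the oxidative stress response.

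The AKR1C genes lie side by side on chromosome 10 and are so similar that the probe sets annotated to one can bind transcripts of another. The _x_at ending marks probe sets with probes that may cross-hybridise, and all 4 readable AKR1C1 and AKR1C2 probe sets carry it. The RefSeq bases before the transcript starts show how alike these genes are upstream. AKR1C1 lies at chr10:4963415-4983283, AKR1C2 at chr10:4987775-5018000 and AKR1C3 at chr10:5048781-5107686 (GRCh38.p14). The 250 bases before each start are given 5′ to 3′ on the gene's own strand, in lower case, with capitals for bases that differ from AKR1C1, or are inserted relative to it, within a pairwise alignment with free ends. Bases at either end that lie outside the alignment, such as the last 4 of AKR1C2, were not compared and are also in lower case. AKR1C1 is at chr10:4963165-4963414 on the plus strand and AKR1C2 at chr10:5003858-5004107 on the minus strand. The windows of the 2 AKR1C3 starts are at chr10:5048531-5048780 and chr10:5094164-5094413 on the plus strand. The AKR1C2 window and the second AKR1C3 window lie inside the loci given above, before internal starts. The identities below hold for these starts only.
AKR1C1: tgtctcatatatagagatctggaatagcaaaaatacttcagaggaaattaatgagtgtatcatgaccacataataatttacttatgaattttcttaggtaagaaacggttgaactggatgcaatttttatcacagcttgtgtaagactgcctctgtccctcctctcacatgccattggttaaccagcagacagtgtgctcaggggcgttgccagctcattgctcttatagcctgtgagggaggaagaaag
AKR1C2: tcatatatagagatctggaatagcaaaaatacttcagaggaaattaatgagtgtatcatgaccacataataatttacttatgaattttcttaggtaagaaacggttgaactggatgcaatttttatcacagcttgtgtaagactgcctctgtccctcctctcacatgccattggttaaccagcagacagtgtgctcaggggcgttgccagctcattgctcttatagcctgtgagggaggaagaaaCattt
AKR1C3, first start: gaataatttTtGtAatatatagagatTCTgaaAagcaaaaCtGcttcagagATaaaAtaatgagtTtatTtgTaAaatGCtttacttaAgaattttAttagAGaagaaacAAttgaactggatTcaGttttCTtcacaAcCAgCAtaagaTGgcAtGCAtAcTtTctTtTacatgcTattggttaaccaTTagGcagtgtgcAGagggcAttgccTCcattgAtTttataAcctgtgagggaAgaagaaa
AKR1C3, second start: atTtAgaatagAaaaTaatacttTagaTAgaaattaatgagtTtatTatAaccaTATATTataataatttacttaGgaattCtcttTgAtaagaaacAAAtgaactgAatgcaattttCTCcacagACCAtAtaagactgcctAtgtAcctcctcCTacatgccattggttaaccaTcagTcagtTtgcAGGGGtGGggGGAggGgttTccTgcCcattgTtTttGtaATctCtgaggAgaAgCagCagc
Of 246 aligned bases, 245 (99.6%) were identical between AKR1C1 and AKR1C2. AKR1C3 shared 185 of 241 aligned bases (76.8%) with AKR1C1 at its first start and 186 of 233 (79.8%) at its second. Each of the 4 windows held a CCAAT box (searched as CCAAT on both strands), which 32% of 35097 RefSeq windows of 250 bases held. Its outer end lay 77 bases before the start in AKR1C1, 81 in AKR1C2, and 73 and 86 in AKR1C3. The core of the antioxidant response element, the sequence bound by NRF2 (searched as TGACNNNGC on both strands), was not matched in these 4 windows and occurred in 10.9% of all windows. An AP-1 site (TGANTCA, both strands) was not matched in them either, against 6.57% of all windows. In both AKR7A2 entries, which overlap almost fully, TGACNNNGC matched 3 times. These matches describe letters in short windows, not bound sites. In all, 6 of the 7 members had a RefSeq window, with 9 entries.

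The PC3 label was set against marker genes. Epithelial KRT8, KRT18, EPCAM and CDH1 ranged from log2 11.74 to 14.80 on the 6 arrays. Of the prostate luminal genes, KLK2 was at 2.41 to 2.48 and KLK3 at 6.26 to 6.87. Leukocyte PTPRC, endothelial CDH5 and stromal DCN stayed at or below 3.30, while endothelial PECAM1 (9.17 to 10.93) and fibroblast COL1A1 (9.56 to 10.77) and COL3A1 (7.04 to 8.75) were bright, and their part in the results below was not tested. The targeted genes went with their labels. VEGFC was at 7.27 and 8.46 with its siRNA against 11.67 to 11.99 on the other arrays. NRP2 was at 2.81 and 3.41 with its siRNA, 4.77 and 4.92 with scrambled siRNA, and 5.51 and 6.01 with VEGF-C siRNA. The highest of the 6 array medians was 3.07.

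Of the 12 probe sets, 8 averaged log2 4 or more across the 6 arrays, the minimum for testing, and ranged from 5.75 to 10.76. The other 4 stayed at or below 2.49 on all arrays, with a range over the arrays of at most 0.10. These were 3 probe sets of AKR1C1 (1555856_s_at, 217626_at and 1555855_at) and 1 of AKR1C2 (244266_at). No probe set was near the minimum, since the dimmest one above it, for AKR1B10, had a mean of 6.94 and the brightest one below it, for AKR1C2, had 2.44. A further probe set annotated to AKR1C1 and AKR1C2 together, and therefore no member, stood at 3.04 to 3.27.

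The family was chosen by measured values, namely results of these arrays that were already known, the higher AKR1C1 level with VEGF-C siRNA among them. Its values in all 3 comparisons are therefore given as a description, with no p-value printed for a member. Members are also counted at p-value thresholds below, and nothing is read from those counts. A level is a deposited log2 value, a difference is one of group means on the log2 scale, and its standard error (SE) comes from limma fitted to all 19946 probe sets tested. Where a mean has an SD, n = 2. A level averages over the cells of a culture, so fewer cells with a transcript and less of it per cell cannot be told apart.

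AKR1C1 and 1 of the AKR1C2 probe sets were about 2-fold higher with VEGF-C siRNA and stayed close to the scrambled level after NRP-2 siRNA. AKR1C3 and AKR7A2 stayed within 0.11 of scrambled siRNA with VEGF-C siRNA. AKR1B10 was also higher on both VEGF-C arrays, but its NRP-2 arrays lay 2.14 apart. The other AKR1C2 probe set did not follow the first.

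AKR1C1 (204151_x_at), the progesterone-inactivating enzyme, read 8.48 and 8.35 with scrambled siRNA, 9.51 and 9.74 with VEGF-C siRNA, and 8.48 and 8.37 with NRP-2 siRNA. Both VEGF-C arrays were above all 4 others, and the NRP-2 arrays overlapped the scrambled ones. The group means were 8.42 ± 0.09 (SD, n = 2), 9.62 ± 0.16 and 8.43 ± 0.08. The difference from scrambled siRNA was +1.21 (SE 0.14), or 2.31-fold, with VEGF-C siRNA and +0.01 (SE 0.14) with NRP-2 siRNA. NRP-2 siRNA stood 1.19 below VEGF-C siRNA, a difference of -1.19 (SE 0.14). Of the probe sets tested, 1.03% had a higher difference with VEGF-C siRNA.

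The second AKR1C1 probe set (216594_x_at) gave the same picture at a lower reading. It stood at 7.62 and 7.55 with scrambled siRNA, 8.49 and 8.59 with VEGF-C siRNA, and 7.57 on each NRP-2 array. Again both VEGF-C arrays lay above the other 4, which spanned less than 0.10. The difference was +0.95 (SE 0.12), or 1.94-fold, with VEGF-C siRNA and -0.02 (SE 0.12) with NRP-2 siRNA. Because transcripts of AKR1C2 may bind both probe sets, these are readings of the pair AKR1C1 and AKR1C2 that cannot be divided between them.

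AKR1C2, which inactivates dihydrotestosterone, had 2 probe sets above the minimum, and they disagreed. The first (209699_x_at) read 7.59 and 7.56 with scrambled siRNA, 8.53 and 8.66 with VEGF-C siRNA, and 7.47 and 7.36 with NRP-2 siRNA. Both VEGF-C arrays were above and both NRP-2 arrays below the scrambled pair. The differences were +1.02 (SE 0.13), or 2.03-fold, with VEGF-C siRNA and -0.16 (SE 0.13), or 0.897-fold, with NRP-2 siRNA.

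The other AKR1C2 probe set (211653_x_at) read 8.30 and 8.26 with scrambled siRNA, 8.27 and 8.77 with VEGF-C siRNA, and 8.19 and 7.96 with NRP-2 siRNA. The first VEGF-C array lay between the scrambled arrays and the second above them, and both NRP-2 arrays were below. Its differences were +0.24 (SE 0.20) with VEGF-C siRNA and -0.20 (SE 0.20) with NRP-2 siRNA. Without the second VEGF-C array the first of these was -0.01, and without the first VEGF-C array it was +0.49. The VEGF-C difference of this probe set was thus far smaller than the +1.02 of the other, with no test made between them. Annotation alone does not say which of the pair reads AKR1C2.

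**Figure D1:**
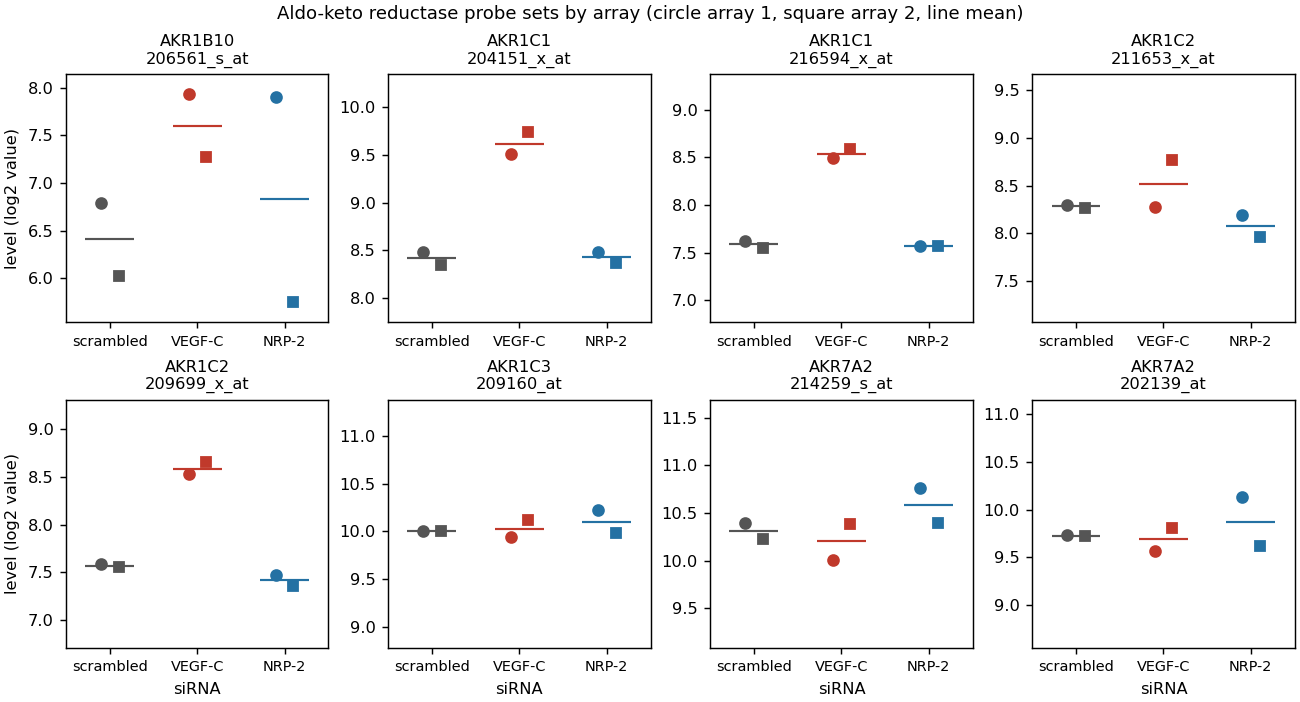
Deposited log2 level (vertical axes, with the same span in each panel) of the 8 probe sets above the minimum of log2 4, by siRNA. Circles are array 1 and squares array 2 of a group, and lines are means of 2 arrays. Both VEGF-C arrays of 204151_x_at, 216594_x_at and 209699_x_at lie above the other 4 arrays, while AKR1B10 ranges over 2.17 and AKR1C3 over 0.28.

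AKR1C3, the enzyme that forms testosterone and converts prostaglandins, was steady. It read 10.00 and 10.01 with scrambled siRNA, 9.94 and 10.12 with VEGF-C siRNA, and 10.22 and 9.98 with NRP-2 siRNA. The 3 groups overlapped, and the whole range over 6 arrays was 0.28. Its differences were +0.03 (SE 0.15) and +0.10 (SE 0.15) with VEGF-C and NRP-2 siRNA. Its probe set is of the _at kind, without the mark for cross-hybridisation. With VEGF-C siRNA 44.7% of the probe sets tested had a higher difference.

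AKR1B10, a reductase of retinal and lipid aldehydes, was the most variable member. It read 6.79 and 6.03 with scrambled siRNA, 7.93 and 7.27 with VEGF-C siRNA, and 7.90 and 5.75 with NRP-2 siRNA. Both VEGF-C arrays were above both scrambled arrays, while the NRP-2 arrays held the second highest and the lowest reading of all 6. Array 1 was above array 2 in each group, by 0.76, 0.66 and 2.14 in the order scrambled, VEGF-C and NRP-2 siRNA. The difference with VEGF-C siRNA was +1.19 (SE 0.72), or 2.27-fold, close in size to that of AKR1C1 but with an SE of 0.72 in place of 0.14. With NRP-2 siRNA the difference was +0.42 (SE 0.72), and it was +1.49 without the second NRP-2 array and -0.66 without the first, so its sign rested on 1 array. The cause of the gap between arrays was not tested.

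AKR7A2, which reduces succinic semialdehyde, lies at chr1:19302708-19312146 (GRCh38.p14) and was read by 2 probe sets. The first (214259_s_at) read 10.39 and 10.23 with scrambled siRNA, 10.01 and 10.38 with VEGF-C siRNA, and 10.76 and 10.39 with NRP-2 siRNA. The second (202139_at) read 9.73 and 9.72, then 9.57 and 9.81, then 10.13 and 9.62 in the same order. VEGF-C arrays overlapped scrambled arrays in both probe sets, and the NRP-2 arrays cleared the scrambled ones in the first by under 0.01. The differences were -0.11 (SE 0.20) and -0.03 (SE 0.20) with VEGF-C siRNA and +0.27 (SE 0.20) and +0.15 (SE 0.20) with NRP-2 siRNA. Without the first NRP-2 array the last of these was -0.10, and without the second it was +0.40.

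**Figure D2:**
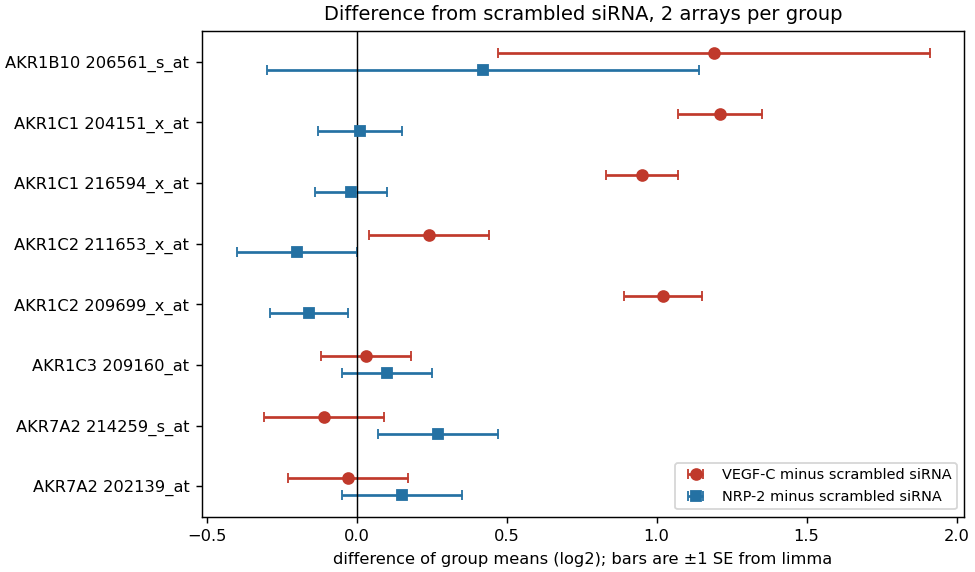
Difference of group means from scrambled siRNA (horizontal axis, log2) for each probe set, with bars of 1 SE from limma, for VEGF-C siRNA (red circles) and NRP-2 siRNA (blue squares), 2 arrays per group. The VEGF-C differences are +1.21, +0.95 and +1.02 for 204151_x_at, 216594_x_at and 209699_x_at, +1.19 with a wide bar for AKR1B10, and within 0.24 of 0 for the rest.

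Counts over the members were set against all 19946 probe sets. With Benjamini-Hochberg adjustment limma called 0% of them in each of the 3 comparisons, with lowest adjusted p-values of 0.226 for VEGF-C against scrambled siRNA, 0.182 for NRP-2 against scrambled siRNA and 0.0836 for NRP-2 against VEGF-C siRNA. At an unadjusted p under 0.05, 2768, 2761 and 3719 probe sets passed in the same order. None of the 8 members was called after adjustment (0 of 8 in each comparison). At the unadjusted threshold 3 of the 8 members were higher with VEGF-C than with scrambled siRNA, against 6.42% of all probe sets, and they were both of AKR1C1 and 209699_x_at of AKR1C2. None was lower, against 7.46%. With NRP-2 siRNA 0 of 8 were higher and 0 lower than with scrambled siRNA, against 6.03% and 7.81%. Between NRP-2 and VEGF-C siRNA the 3 probe sets named above were lower with NRP-2 siRNA, against 9.52% of all, and 0 were higher, against 9.13%. The comparisons share arrays, the 3 probe sets may read the same transcripts, and the family was chosen with these contrasts known, so nothing is read from the counts.

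Groups that did not overlap were common on the whole array. With VEGF-C siRNA 4 of the 8 members lay wholly above scrambled siRNA, the 3 above and AKR1B10, against 25.7% of all probe sets, and 0 lay wholly below, against 26.3%. With NRP-2 siRNA 1 member, 214259_s_at of AKR7A2, lay wholly above (22.9% of all) and both AKR1C2 probe sets lay wholly below (26.2% of all). The median difference of the 8 members was +0.60 for VEGF-C against scrambled siRNA and +0.06 for NRP-2 against scrambled siRNA, while the median of all probe sets tested was -0.01 in both.

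Relatives outside the 7 genes were mostly dim. Of 10 other aldo-keto reductase genes listed, 7 had a named probe set and 1, AKR7A3, an aflatoxin aldehyde reductase, passed the minimum. It stood at 6.24 ± 0.13 (SD, n = 2) with scrambled, 6.14 ± 0.05 with VEGF-C and 6.27 ± 0.09 with NRP-2 siRNA. AKR1C4, the liver form of the cluster, was at 2.47, 2.43 and 2.43, and AKR1D1, a steroid reductase of bile acid synthesis, at 3.14, 3.08 and 3.07.

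The NRF2 pathway, which is known to drive AKR1C1 and AKR1B10, was read by 28 of 34 listed genes, each through its brightest probe set. With VEGF-C siRNA 5 were higher and 0 lower at limma's unadjusted p under 0.05, against 6.56% and 7.44% of all 11131 genes, and 0 passed after adjustment. The 5 were NFE2L2, MAFF, BACH1, GCLC and SRXN1, and 24 of the 28 differences were above 0 with a median of +0.21. With NRP-2 siRNA 1 was higher and 2 lower (6.2% and 6.44% of all genes), 15 of 28 lay above 0, and the median was +0.05. The median of all genes lay within 0.01 of 0 in both comparisons.

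The largest VEGF-C difference of the 28 NRF2 genes, in either direction, was +1.03 (SE 0.43), for GPX2. AKR1C1 stood at +1.21 by 204151_x_at and +0.95 by 216594_x_at. It was chosen with its VEGF-C level known, so nothing is read from how it ranks beside the list. NFE2L2, which encodes NRF2, averaged 12.89 ± 0.01 (SD, n = 2) on scrambled, 13.21 ± 0.05 on VEGF-C and 12.96 ± 0.09 on NRP-2 arrays. Its differences were +0.32 (SE 0.12) and +0.07 (SE 0.12). KEAP1, the adaptor that marks NRF2 for degradation, differed by +0.14 (SE 0.14) and +0.28 (SE 0.14), and NQO1, a quinone reductase and common NRF2 readout, by +0.26 (SE 0.15) and +0.25 (SE 0.15). GCLC, the catalytic subunit of glutathione synthesis, differed by +0.56 (SE 0.16) with VEGF-C siRNA and -0.02 (SE 0.16) with NRP-2 siRNA. BACH1, a repressor of NRF2 targets, differed by +0.56 (SE 0.13) and +0.36 (SE 0.13). TXNRD1, thioredoxin reductase, differed by +0.21 (SE 0.13) and -0.34 (SE 0.13). GSR, glutathione reductase, differed by -0.81 (SE 0.42) and -1.99 (SE 0.42), and none of these passed limma's test after adjustment over all probe sets (adjusted p from 0.206 for GSR with NRP-2 siRNA upward).

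Other enzymes that handle the same kinds of substrate were counted the same way and read against the same shares of all genes. Of 16 readable carbonyl reductases and aldehyde dehydrogenases, 2 were higher and 0 lower with VEGF-C siRNA, and 3 higher and 2 lower with NRP-2 siRNA. CBR4, a mitochondrial carbonyl reductase subunit, differed by +0.17 (SE 0.22) and +0.91 (SE 0.22), and CBR1, a cytosolic carbonyl reductase, by -0.19 (SE 0.19) and +0.57 (SE 0.19). ALDH3B1, an aldehyde dehydrogenase of lipid aldehydes, differed by +0.41 (SE 0.13) with VEGF-C siRNA and -0.37 (SE 0.13) with NRP-2 siRNA.

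Of 23 readable steroid, prostaglandin and retinoid enzymes, 0 were higher and 1 lower with VEGF-C siRNA, and 1 was higher and 4 lower with NRP-2 siRNA. PTGR2, which reduces keto-prostaglandins, was at 8.85 with scrambled, 7.95 with VEGF-C and 8.37 with NRP-2 siRNA, with differences of -0.90 (SE 0.16) and -0.48 (SE 0.16). SRD5A1, the reductase that makes dihydrotestosterone, differed by +0.61 (SE 0.29) and +1.04 (SE 0.29), and STS, steroid sulfatase, by -0.34 (SE 0.26) and -0.89 (SE 0.26). Of 6 readable genes of the polyol and methylglyoxal pathways, 0 passed the unadjusted threshold with VEGF-C siRNA and 1 was higher with NRP-2 siRNA. That gene, KHK, the fructose kinase, stood at 4.55 ± 0.22 (SD, n = 2) with scrambled siRNA and 5.99 ± 1.13 with NRP-2 siRNA. TPI1, triosephosphate isomerase, differed by +0.10 (SE 0.17) and +0.41 (SE 0.17), and HAGH, the second enzyme of methylglyoxal removal, by -0.16 (SE 0.14) and +0.12 (SE 0.14). In these 3 lists, too, 0 genes passed after adjustment.

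**Figure D3:**
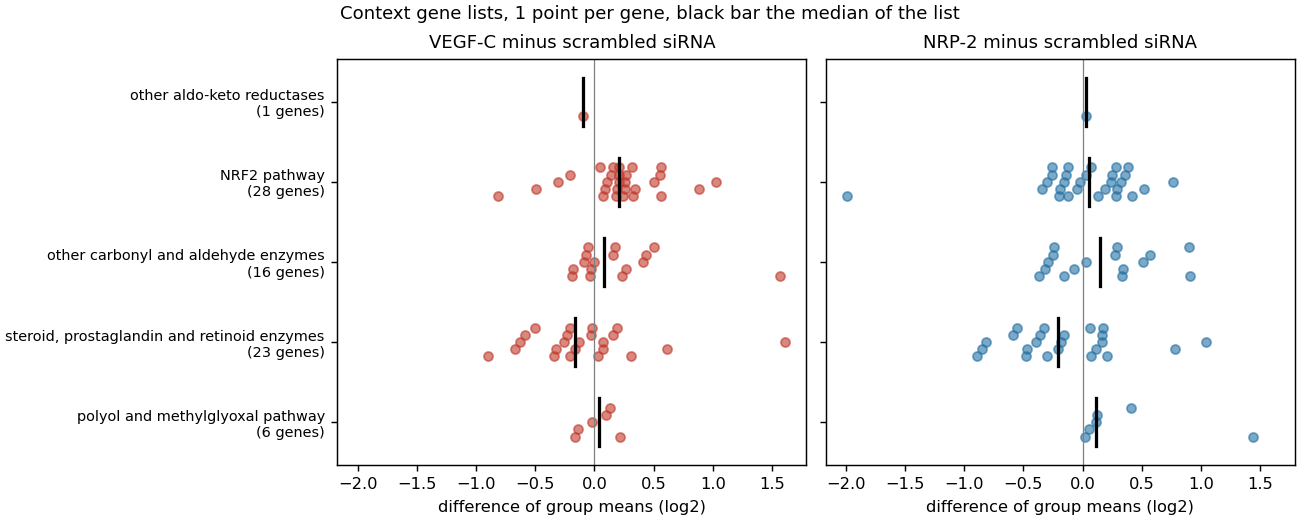
Difference of group means from scrambled siRNA (horizontal axes, log2) for the genes of 5 context lists, VEGF-C on the left and NRP-2 on the right. Points are genes, each by its brightest probe set, and black bars are list medians. With VEGF-C siRNA 24 of the 28 NRF2 pathway genes lie above 0, with a median of +0.21, and with NRP-2 siRNA 15 of 28 do.

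Genes with the most similar profile were sought for the brightest probe set of each member with an SD of at least 0.3 over the 6 arrays, which AKR1C1 and AKR1B10 met. Likeness was the root mean square difference over the 6 arrays after centring each profile on its own mean, among 11126 other genes. Similar genes were thus picked on the same arrays, so their agreement with the member follows from the choice. The nearest to AKR1C1 were EPSTI1, an interferon-induced gene, at 0.16, CCNA1, the testis cyclin A, and PARP8, an ADP-ribosyltransferase, each at 0.17, PDLIM2, a PDZ-LIM protein, at 0.18, and METTL8, an RNA methyltransferase, at 0.19. Their differences with VEGF-C siRNA were +1.07, +1.02, +1.02, +1.34 and +0.77 in that order, and with NRP-2 siRNA they lay between -0.16 and +0.11.

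The nearest to AKR1B10 were MIR924HG, a microRNA host transcript, at 0.20, PI3, the elastase inhibitor elafin, at 0.25, COL12A1, a fibril-associated collagen, at 0.27, and TGFBI, a secreted matrix protein, and MT2A, a metallothionein, each at 0.28. By this choice, all 5 had their lowest or second lowest reading on the second NRP-2 and the second scrambled array, as AKR1B10 did. TGFBI, for example, stood at +1.08 and -1.64 from its mean on the NRP-2 arrays. None of the 10 genes named as similar was an NRF2 gene of the list. That list had only 28 readable genes, against 11126 compared, so nothing is read from their absence.

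**Figure D4:**
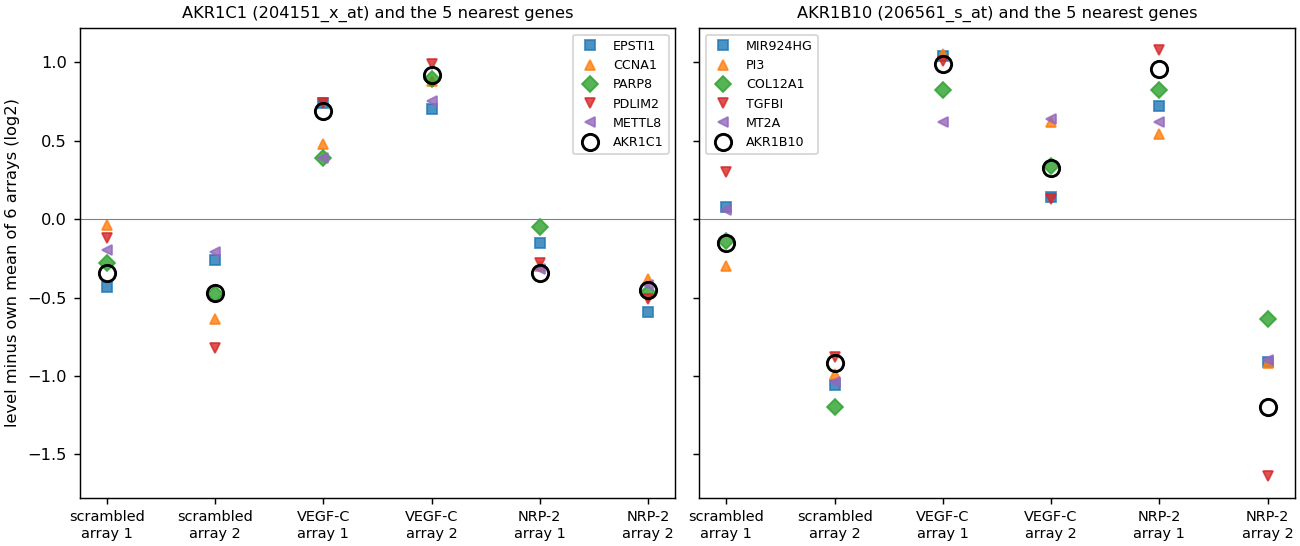
Level minus the gene's own mean over 6 arrays (vertical axis, log2) on each array, for AKR1C1 (left, open circles) and AKR1B10 (right, open circles) and the 5 genes nearest to each (filled symbols). AKR1C1 and its neighbours are high on both VEGF-C arrays, while AKR1B10 and its neighbours are low on the second scrambled and the second NRP-2 array. The neighbours were chosen for likeness on these same arrays, so their agreement is built in.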

How the data were processed

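RNA of 6 arrays was labelled from 6 ug of total RNA each, per the labels' protocols. Values are log2 per probe set as the authors deposited them. The submitters' processing notes name Partek and GCRMA, with their versions not given in the sources used here. That method corrects background by probe sequence and compresses values near the floor, so changes of dim genes are understated. The deposited log2 values ran from 0.82 to 16.32. Without scanner files or detection calls, presence was not judged, and the small number of arrays limits precision.

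Probe sets were named from the platform annotation of 2016 (41091 with 1 gene, 1801 with several, 11721 with none, 62 controls), and 0 symbols needed an update. The 19946 with 1 gene and an average of log2 4 or more entered limma 3.58.1 (R 4.3.3) in 1 fit of all 6 arrays (lmFit and eBayes, two-sided, 3 residual degrees of freedom, prior 2.51), with Benjamini-Hochberg adjustment over all of them at 0.05. The fit was tested on simulated data with independent noise and changes larger than any member difference. That test does not cover changes of the size reported here. Upstream windows are RefSeq, GRCh38.p14, aligned with Biopython 1.88.

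Members and lists were chosen with earlier results of these data known. All members are accounted for. Of each context list the 3 genes with the smallest p against scrambled siRNA were named, plus NFE2L2, KEAP1, NQO1, VEGFC and NRP2. The 5 genes nearest to AKR1C1 and to AKR1B10 are also named. AKR1C4, AKR1D1, MAFF, SRXN1, TXNRD1 and GPX2 were named after their values were seen. Alternatives were the low-value filter, the scaling of arrays, the arrays in the fit, the spread model, a replicate block and leaving out each array.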

Additional observations from a re-analysis of the deposited data

Results flagged for a closer look

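The AKR1C2 probe set 209699_x_at was higher on both VEGF-C arrays and lower on both NRP-2 arrays than on both scrambled arrays, with a difference of -1.18 between NRP-2 and VEGF-C siRNA. It is listed for this opposite direction alone. How many of all probe sets show the same was not counted. Taken singly, 25.7% of them lay wholly above scrambled siRNA with VEGF-C siRNA and 26.2% wholly below with NRP-2 siRNA. In limma the difference between the 2 siRNAs was among those at an unadjusted p under 0.05 and did not pass after adjustment over all probe sets, and nothing is read from it because the genes were chosen with these contrasts known. The NRP-2 side of it was -0.16 (SE 0.13).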

How the results depend on the processing

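Without the low-value filter limma called 28 probe sets between NRP-2 and VEGF-C siRNA (12 higher, 16 lower) in place of 0, none of them a member, and 0 in the other 2 comparisons. No other alternative gave a call in any comparison. Leaving out 1 array at a time left 0 calls, and the members at an unadjusted p under 0.05 numbered 3 to 4 for VEGF-C against scrambled siRNA, 0 to 1 for NRP-2 against scrambled siRNA and 3 to 4 for NRP-2 against VEGF-C siRNA. With the replicate number as a block these counts were 4, 0 and 3. Same-numbered scrambled and NRP-2 arrays deviated together, with a correlation of 0.527 over 19946 probe sets. The correlations were 0.083 for scrambled and VEGF-C and 0.092 for VEGF-C and NRP-2 arrays. The main fit did not take the numbers as pairs. Its SEs for NRP-2 against scrambled siRNA therefore count the deviation those 2 groups shared as spread between arrays, although it cancels in their difference. Of 104 recomputed member differences per comparison, 100, 100 and 96 stayed within 1 SD of the value reported. Many had to, because the filters, the spread model, the replicate block and the arrays of the third group cannot change a difference of group means. These counts are therefore no measure of robustness. The difference of AKR1C1 204151_x_at with VEGF-C siRNA ranged from +1.09 to +1.32, that of 216594_x_at from +0.90 to +1.00 and that of 209699_x_at from +0.95 to +1.09, while AKR1B10 ranged from +0.81 to +1.57. With 2 arrays per group, small differences of AKR1C3 and AKR7A2 could not be resolved.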
